A study of Mus musculus with 6 samples.

Results

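The immediate early genes Fos, Fosb, Jun, Junb, Egr1, Egr2, Ier2, Dusp1, Atf3 and Nr4a1 were followed in RNA from the spleens of female NOD mice, which become diabetic through autoimmune destruction of their islets. The 10 genes were chosen by name, and every probe set of the array that carries one of these names was taken, which gave 12 probe sets among the 45037 tested and 10 genes among the 18194 that a probe set names alone. Jun and Egr2 had 2 probe sets each and the other 8 genes had 1. Each group of mice was represented by 1 RNA pool, which was labeled and hybridized to Affymetrix Mouse Genome 430 2.0 arrays in duplicate, so there were 3 groups and 6 arrays. The untreated non-diabetic group, called control mice from here on, held mice that stayed free of disease, the untreated diabetic group held mice that fell ill, and the TSA-treated group held cured, non-diabetic mice that had received Trichostatin A, an inhibitor of histone deacetylases, subcutaneously at 500 µg/kg body weight each week between 18 and 24 weeks of age. The labels give an age of 32 to 36 weeks at death for all groups, while the methods give the diabetic mice a younger age than the cured mice. The labels count 3 to 5 mice in a pool, and the methods slightly more. The other groups were untreated and are not described as having been injected with vehicle, and the spleen cells were not stimulated before the RNA was taken. Because both arrays of a group came from 1 pool, every standard deviation and p-value below measures the spread between hybridizations and not between mice.

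Immediate early genes are transcribed within minutes of a stimulus, without new protein synthesis, when kinase cascades switch on transcription factors that already sit at their promoters, chiefly SRF with its ternary complex partners and CREB. Most of them encode transcription factors: Fos, Fosb, Jun, Junb and Atf3 are basic leucine zipper proteins that form or join AP-1 dimers, Egr1 and Egr2 are zinc finger factors, and Nr4a1 is an orphan nuclear receptor induced by antigen receptor signals in lymphocytes. Dusp1 encodes a nuclear phosphatase that switches the MAP kinases off again. In spleen the set is known both as a sign of lymphocyte activation and as a response to dissociation and handling of tissue. The arrays measured the amount of each transcript at the time of lysis and could not tell these sources apart, and in RNA of a whole cell mixture fewer cells of a type and less RNA per cell cannot be told apart either.

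The promoters of Junb, Dusp1, Fos and Egr2 are shown here as RefSeq gives them for the mouse genome build GRCm38.p6. Each runs from 250 bases before to 50 bases after the start of the transcript, 5′ to 3′ on the strand of the gene. Those of Ier2 and Egr1, which were among the members that led the results, are not shown. Capitals mark TGACG or CGTCA, the core of the cyclic AMP response element read on either strand, and the CArG box that SRF binds. Junb and Dusp1 are shown because they lay on opposite sides in every comparison with control mice, and Fos because it is the archetype of the set. Egr2 is shown because it alone of the genes counted below, which leave out Egr1 and Ier2, has a CArG box in this window. Junb lies at chr8:84978699-84978998 on the minus strand.
Junb: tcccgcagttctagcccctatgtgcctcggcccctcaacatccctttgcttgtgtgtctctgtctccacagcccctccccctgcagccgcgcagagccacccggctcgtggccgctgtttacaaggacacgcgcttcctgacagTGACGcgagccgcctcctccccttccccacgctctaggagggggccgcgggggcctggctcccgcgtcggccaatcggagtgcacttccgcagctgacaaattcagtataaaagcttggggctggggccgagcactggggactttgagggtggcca
Dusp1 lies at chr17:26508423-26508722 on the minus strand, and its 3 matches include an overlapping pair in the full palindrome TGACGTCA.
Dusp1: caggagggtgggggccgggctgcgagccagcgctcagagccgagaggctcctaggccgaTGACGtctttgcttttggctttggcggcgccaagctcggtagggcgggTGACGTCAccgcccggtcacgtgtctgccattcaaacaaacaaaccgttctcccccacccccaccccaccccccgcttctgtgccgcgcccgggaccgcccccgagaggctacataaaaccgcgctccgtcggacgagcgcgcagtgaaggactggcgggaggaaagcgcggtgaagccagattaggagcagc
Fos lies at chr12:85473640-85473939 on the plus strand.
Fos: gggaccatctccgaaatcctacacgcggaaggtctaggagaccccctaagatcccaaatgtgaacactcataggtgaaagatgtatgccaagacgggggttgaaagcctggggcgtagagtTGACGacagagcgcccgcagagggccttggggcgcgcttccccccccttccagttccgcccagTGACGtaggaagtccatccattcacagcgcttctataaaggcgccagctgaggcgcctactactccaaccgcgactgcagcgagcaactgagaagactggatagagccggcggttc
Egr2 has several listed starts, and the window at chr10:67537619-67537918 on the plus strand is given.
Egr2: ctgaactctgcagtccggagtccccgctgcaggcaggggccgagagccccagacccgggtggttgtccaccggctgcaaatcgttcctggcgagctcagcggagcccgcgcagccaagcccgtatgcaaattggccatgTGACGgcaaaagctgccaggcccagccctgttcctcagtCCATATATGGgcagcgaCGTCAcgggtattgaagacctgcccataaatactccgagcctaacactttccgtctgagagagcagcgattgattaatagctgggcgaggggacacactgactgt
The counts of members cover 12 windows of 8 of the 10 genes. Egr1 is missing because windows on its chromosome were left out for the members, though not for the shares over all. Ier2 had no window. TGACG or CGTCA occurred in 9 of the 12 windows, which belonged to 7 of the 8 genes (all but Jun), compared with 20.8% of all 32851 windows and 23% of all 27025 genes. The palindrome TGACGTCA was found for Dusp1 alone among the 8, and in 1.79% of all windows. The CArG box was found in 4 windows, all of Egr2 and in part overlapping, and in 1.63% of all windows. By genes this was 1 of 8 against 1.81% of all. TGACTCA or TGAGTCA, the site of AP-1 itself, occurred in 0 of the 12 windows against 5.2% of all. These matches describe letters in a short window and not binding.

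The arrays of a pool did not resemble each other equally, which bears on the values below. The standard deviation of the difference between duplicates over all probe sets was 0.25 on the log2 scale in the control pool, 0.52 in the diabetic pool and 0.59 in the TSA-treated pool. Over all probe sets the second diabetic array correlated more closely with the first TSA-treated array (Pearson r = 0.990 across probe sets, which are not independent replicates) than with its own duplicate (0.973). The 3′ minus 5′ signal of the beta-actin probe sets on the array, a measure that grows when RNA is degraded or copied incompletely, was 2.35 and 2.05 on the control arrays, 2.42 and 3.32 on the diabetic arrays and 3.45 and 5.61 on the TSA-treated arrays. For the Gapdh probe sets it was 2.67 and 1.91, 1.82 and 3.19, and 3.85 and 4.58. In both measures the second diabetic array was above the first and above both control arrays. For Junb, Ier2, Dusp1 and Fos the values without it are given as well.

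Junb, Ier2 and Egr1 were lower on both TSA-treated arrays than on both control arrays, with differences of means of -1.50, -1.13 and -0.71 on the log2 scale, and Dusp1 was higher by 0.66. Egr1 and Dusp1 lay on the same sides in diabetic mice, Junb and Ier2 varied there between arrays of the same RNA, and Fos was highest in diabetic mice. Fosb, Jun, Egr2, Atf3 and Nr4a1 differed less. None of the 12 probe sets passed limma's test. Limma called 0 of 12 higher or lower at an adjusted p below 0.05 in the comparison of diabetic with control mice, where 0.0888% of all probe sets were called. It called 0 of 12 in TSA-treated against control mice, with 0.0688% called among all, 0 of 12 in diabetic against TSA-treated mice, with 0.0266% called, and 0 of 12 for any difference among the groups, with 0.0933% called. At so low a background a count of 0 among 12 says little about the members. The local pooled error test, which called 3.59% of all probe sets in TSA-treated against control mice, called 1 member there (Junb), and 0 in the other comparisons, where it called 1.32% (diabetic against control) and 0.133% (diabetic against TSA-treated). The t-test, which the methods name along with the local pooled error test, called 0 members. Among all probe sets it called 0.00222% in diabetic and 0.00444% in TSA-treated against control mice, and 0% between diabetic and TSA-treated mice. At an unadjusted p below 0.05 there was 1 member lower in diabetic than in control mice (Junb), against a background of 3.43% lower. There were 3 lower (Junb, Egr1 and Ier2) and 1 higher (Dusp1) in TSA-treated than in control mice, against 8.34% and 6.39%. Between diabetic and TSA-treated mice there was none, against 4.27% in either direction. The median difference over the 10 genes was -0.12 between diabetic and control mice, -0.09 between TSA-treated and control mice and 0.09 between diabetic and TSA-treated mice, compared with 0.01, 0.05 and -0.02 over all probe sets. Any 2 of these comparisons share the arrays of 1 group.

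**Figure D1:**
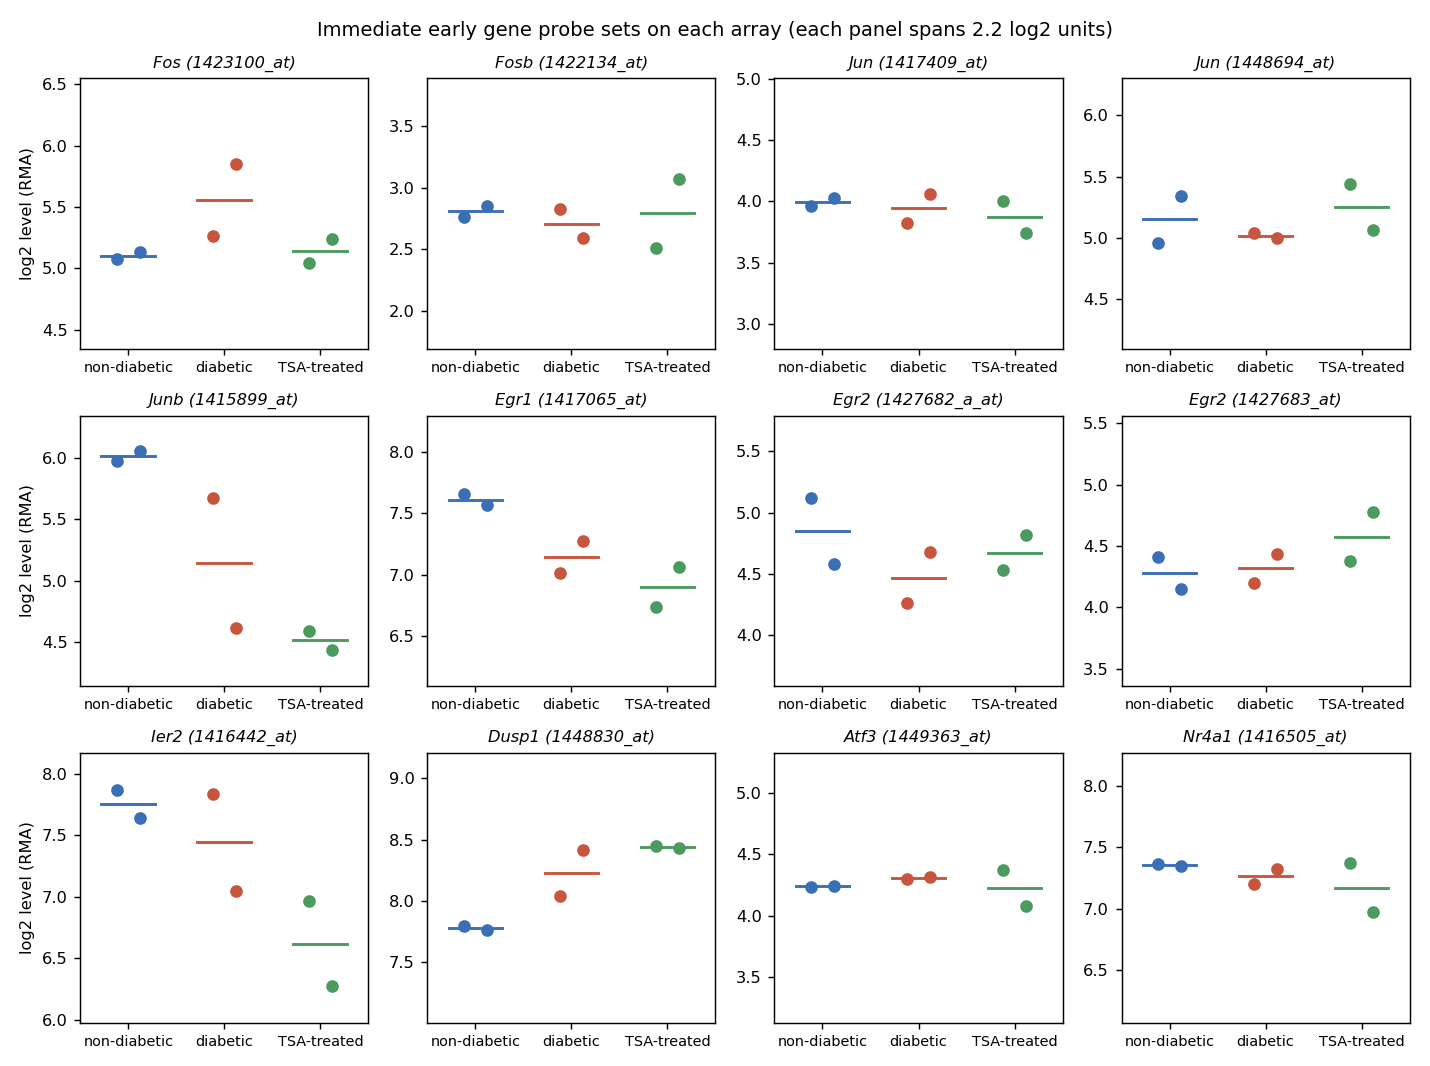
Log2 level (vertical axis, each panel spanning the same range) of the 12 probe sets on each of the 6 arrays, with points for single arrays and bars for the mean of the 2 arrays of a pool. Junb lay at 5.97 and 6.05 on the control arrays (labeled non-diabetic), at 4.62 on the second diabetic array and at 4.59 and 4.44 on the TSA-treated arrays, while Dusp1 was at 8.04 or above on every diabetic and TSA-treated array.

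Junb, which encodes a Jun protein that often restrains AP-1 activity and takes part in T helper cell differentiation, had the largest group difference of the set. Its log2 level (probe set 1415899_at) was 5.97 and 6.05 on the control arrays, 5.67 and 4.62 on the diabetic arrays and 4.59 and 4.44 on the TSA-treated arrays. The groups did not overlap in any comparison, and the second diabetic array lay at the level of the TSA-treated arrays. The difference of means between TSA-treated and control mice was -1.50 ± 0.34 (SE; 95% interval -2.34 to -0.66), with an adjusted p of 0.165 by limma, and 3.1% of all probe sets differed by as much. Between diabetic and control mice it was -0.87 (-1.71 to -0.03; limma adjusted p = 0.796), which was smaller than the 1.05 between both diabetic arrays of the same RNA. With the second diabetic array left out that difference was -0.34. In diabetic mice Junb was 0.63 above TSA-treated mice (-0.21 to 1.47; limma adjusted p = 0.902), and 1.15 above them without that array. Junb passed the threshold in TSA-treated against control mice when these 2 groups were fitted alone (limma adjusted p = 0.0397), a setting in which 1.59% of all probe sets were called. Over 18 alternative settings its limma adjusted p was highest, at 0.964, with the beta-actin signal difference as a covariate. Limma called 0% of all probe sets there.

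Ier2, a short-lived nuclear protein named for its early induction, followed the order of Junb on most arrays. Its log2 level (1416442_at) was 7.87 and 7.64 on the control arrays, 7.84 and 7.05 on the diabetic arrays and 6.96 and 6.28 on the TSA-treated arrays. The TSA-treated arrays were the lowest, and the first diabetic array lay among the control ones. The TSA-treated mean differed from the control mean by -1.13 ± 0.34 (SE; 95% interval -1.98 to -0.29; limma adjusted p = 0.231). The diabetic mean differed from it by -0.31 (-1.16 to 0.54; limma adjusted p = 1.0), and by 0.09 with the second diabetic array left out, so its direction rested on that array. Diabetic exceeded TSA-treated mice by 0.82 (-0.02 to 1.67; limma adjusted p = 0.902), and by 1.22 without that array. The diabetic duplicates were 0.79 apart and the TSA-treated duplicates 0.68.

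The zinc finger factors split. Egr1, a target of MAP kinase signaling that is induced by antigen receptors in B and T cells, had log2 levels (1417065_at) of 7.66 and 7.56 on the control arrays, 7.01 and 7.28 on the diabetic arrays and 6.73 and 7.06 on the TSA-treated arrays. Both control arrays were above all others, and the diabetic and TSA-treated arrays overlapped. The difference was -0.71 ± 0.19 (SE; 95% interval -1.19 to -0.23; limma adjusted p = 0.207) in TSA-treated and -0.47 (-0.94 to 0.01; limma adjusted p = 0.797) in diabetic mice, each against control mice. The 2 diabetic arrays differed by 0.27, less than either group difference. Egr2, which together with its relative Egr3 limits T cell activation and is needed for anergy, gave 5.12 and 4.58, 4.27 and 4.68, and 4.53 and 4.82 in the same order of groups with 1427682_a_at, the brighter of its probe sets. With 1427683_at it gave 4.41 and 4.15, 4.196 and 4.44, and 4.38 and 4.77. The probe sets of Egr2 disagreed in direction, at -0.17 and 0.30 for TSA-treated against control mice and -0.38 and 0.04 for diabetic against control mice, and all these intervals included 0. The -0.38 ran from -0.64 to -0.11 with single arrays left out, smallest without the first control array.

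Dusp1, the phosphatase that inactivates MAP kinases and is itself induced through them, differed the other way. Its log2 level (1448830_at) was 7.80 and 7.77 on the control arrays, 8.04 and 8.41 on the diabetic arrays and 8.45 and 8.43 on the TSA-treated arrays. All diabetic and TSA-treated arrays were above both control arrays. The difference from control mice was 0.66 ± 0.18 (SE; 95% interval 0.21 to 1.11; limma adjusted p = 0.211) in TSA-treated mice and 0.45 (-0.00 to 0.89; limma adjusted p = 0.796) in diabetic mice. The TSA-treated duplicates were 0.02 apart and the diabetic duplicates 0.37, and without the second diabetic array the diabetic difference from control mice was 0.26. Between diabetic and TSA-treated mice the difference was -0.21 (-0.66 to 0.24; limma adjusted p = 0.904), and it ran from -0.40 without the second diabetic array to -0.028 without the first.

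Fos, the founding AP-1 subunit, was highest in diabetic mice, with most of the excess on 1 array. Its log2 level (1423100_at) was 5.08 and 5.13 on the control arrays, 5.27 and 5.85 on the diabetic arrays and 5.04 and 5.24 on the TSA-treated arrays. The diabetic arrays did not overlap with the others, but the first exceeded the higher TSA-treated array by little. The diabetic mean was 0.46 above the control mean (-0.12 to 1.03; limma adjusted p = 0.84) and 0.42 above the TSA-treated mean (-0.15 to 0.99; limma adjusted p = 0.902). The diabetic arrays were 0.59 apart, more than either difference, and without the second of them the differences were 0.16 and 0.12. TSA-treated and control mice differed by 0.04 (-0.53 to 0.61).

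The remaining AP-1 genes and Nr4a1 had differences between -0.24 and 0.10 in the 3 comparisons. Jun, the usual partner of Fos, gave 4.96 and 5.34, 5.04 and 5.00, and 5.44 and 5.07 with 1448694_at, and 3.96 and 4.02, 3.83 and 4.06, and 4.004 and 3.74 with 1417409_at, for control, diabetic and TSA-treated arrays. Its probe sets differed in sign between TSA-treated and control mice, at 0.10 (-0.42 to 0.63) and -0.12. Fosb gave 2.76 and 2.85, 2.83 and 2.59, and 2.51 and 3.07, which on average lay 1.11 below the middle of the arrays, where a level is hard to tell from background. Atf3, a stress-induced member of the CREB family, gave 4.24 and 4.24, 4.30 and 4.32, and 4.37 and 4.08, also close to the middle of the arrays. Nr4a1 gave 7.37 and 7.35, 7.20 and 7.32, and 7.37 and 6.97, well above the middle of the arrays. The intervals for TSA-treated against control mice were -0.59 to 0.55 for Fosb, -0.43 to 0.41 for Atf3 and -0.66 to 0.28 for Nr4a1. These bounds show the size of difference that the arrays could not exclude, and they do not show that the levels were the same.

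**Figure D2:**
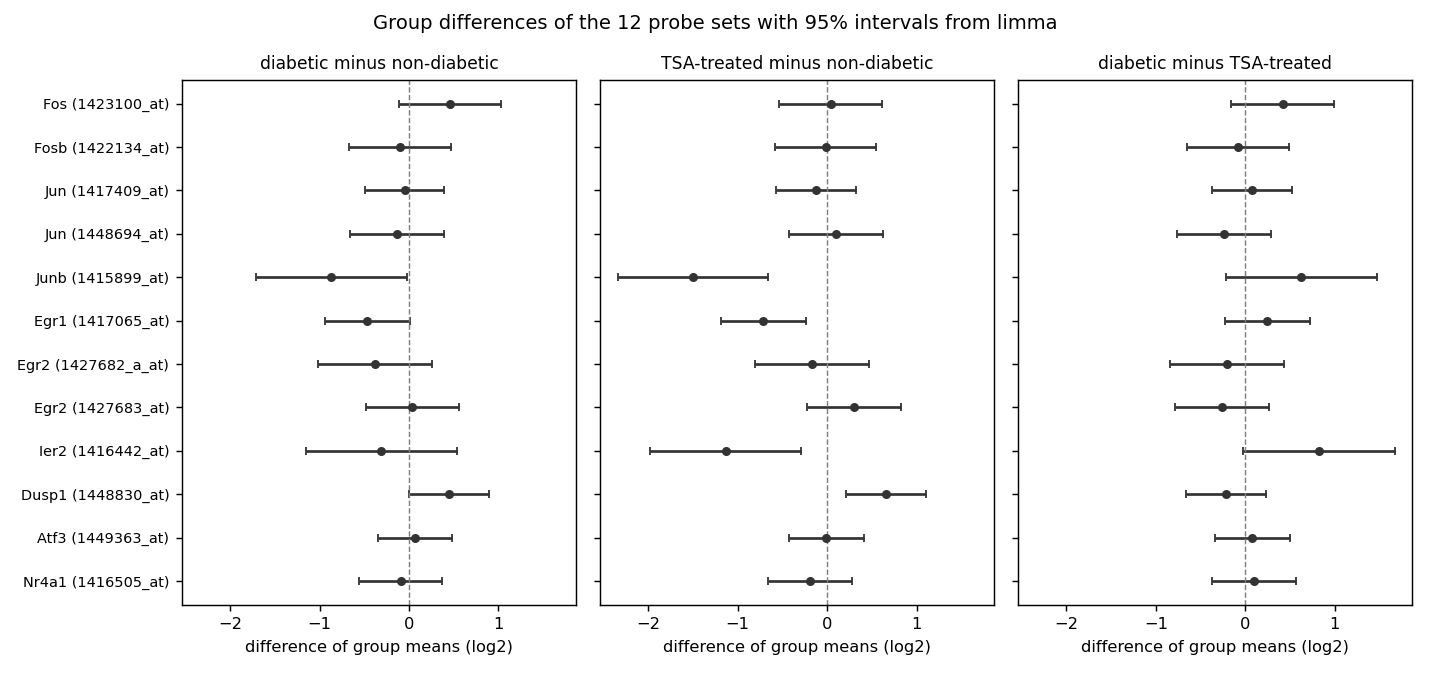
Difference of group means on the log2 scale (horizontal axis) for the 12 probe sets in the 3 comparisons, with 95% intervals from limma over 6 arrays. In the middle panel Junb, Ier2 and Egr1 lie below 0 at -1.50, -1.13 and -0.71 and Dusp1 above 0 at 0.66, and the other 8 probe sets lie between -0.19 and 0.30.

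The arrays of diabetic and control mice did not overlap for 6 of the 12 probe sets, 3 higher and 3 lower, where 41% of all probe sets did not overlap (21.6% higher and 19.4% lower). In TSA-treated against control mice 4 of 12 did not overlap, 1 higher and 3 lower, against 47.8% of all (26.3% and 21.5%), and in diabetic against TSA-treated mice 5 of 12, 3 higher and 2 lower, against 27.5% (11.4% and 16.2%). Differences of at least 1 on the log2 scale were seen for Junb and Ier2 in TSA-treated against control mice and for no member in the other comparisons, where a difference of that size without overlap was found for 7.27% of all probe sets in the first case and 2.56% and 1.27% in the others. Of the 45 pairs of member genes, 22 had a Pearson correlation above 0 over the 6 arrays and 23 below, with a median of -0.05. Junb and Ier2 were the most alike among the genes that led, with a correlation of 0.90, and Junb and Dusp1 the most opposed, with -0.99. These 6 arrays come from 3 pools and share the duplicates' technical differences, so the correlations only describe them.

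Junb and Ier2 were lower, and Dusp1 was higher, on the arrays with a larger beta-actin signal difference. The mean level of the member genes was lower there too. It was 5.71 on the second diabetic array and 5.60 and 5.55 on the TSA-treated arrays. On the control arrays it was 5.88 and 5.85, and on the first diabetic array 5.75. On the second diabetic array and both TSA-treated arrays the beta-actin signal difference was at least 3.32. There Junb was at most 4.62, Ier2 at most 7.05 and Dusp1 at least 8.41. On the other 3 arrays the signal difference was at most 2.42, Junb was at least 5.67 and Ier2 at least 7.64. Dusp1 was at most 8.04 on those arrays. With the beta-actin signal difference as a covariate the TSA-treated minus control difference was -0.95 for Junb, -0.24 for Ier2, -1.12 for Egr1 and 0.53 for Dusp1. The limma adjusted p were 0.964, 0.978, 0.964 and 0.964, and with this covariate limma called 0% of all probe sets in that comparison. With the second diabetic and the second TSA-treated array both left out, limma called Junb (adjusted p = 0.0204) and Egr1 (0.0386) lower in TSA-treated mice, but 8.48% of all probe sets were called in that setting. The adjusted p of Egr1 ranged from 0.0386 to 0.964 over its 18 alternatives. The part of RNA quality in these results was not tested.

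**Figure D3:**
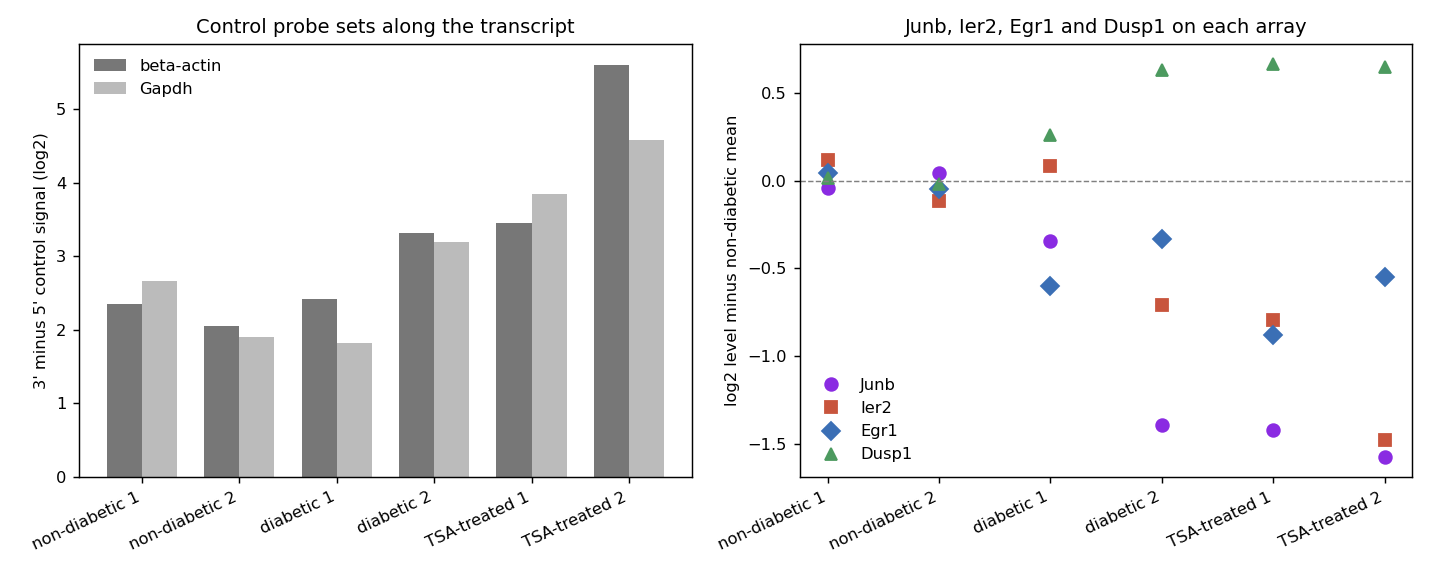
Left, 3′ minus 5′ signal of beta-actin and Gapdh (bars, log2) on each of the 6 arrays. Right, log2 level of Junb, Ier2, Egr1 and Dusp1 on the same arrays minus the control mean, with Junb at -0.34 on the first diabetic array, -1.39 on the second and -1.42 and -1.58 on the TSA-treated arrays.

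Markers of the cell types that the sample could hold also differed in level between the groups. The mean log2 level of 7 of 8 B cell markers was 9.62 and 9.67 on the control, 9.38 and 9.26 on the diabetic and 8.79 and 7.72 on the TSA-treated arrays, and that of 7 of 8 T cell markers 7.78 and 7.82, 7.47 and 7.65, and 7.33 and 6.86. Monocyte and macrophage markers (8 of 8) were at 9.19 and 9.13, 9.37 and 9.36, and 9.28 and 8.03. Neutrophil markers (7 of 8) were at 10.57 and 10.63, 11.16 and 11.13, and 10.55 and 9.73. Erythroid markers (6 of 8) were at 8.93 and 8.84, 9.42 and 9.44, and 9.86 and 9.37. Platelet and megakaryocyte markers (5 of 5) were at 9.43 and 9.31, 9.12 and 9.03, and 8.81 and 8.61, and stromal and vascular markers (8 of 8) at 7.21 and 7.21, 6.60 and 6.74, and 6.53 and 6.04. Of these lists limma called 0 genes in any comparison. At an unadjusted limma p below 0.05, 7 of 7 B cell and 5 of 7 T cell markers were lower in TSA-treated than in control mice. So were 4 of 5 platelet and 4 of 8 stromal markers, against 8.34% of all probe sets, and 0 of these 4 lists were higher. Erythroid markers were higher for 4 of 6, against 6.39%. Monocyte markers (1 higher, 1 lower) and neutrophil markers (2 higher, 1 lower) were mixed. Pancreatic acinar markers (6 of 8), which mark the exocrine pancreas, were at 4.95 and 4.93, 11.59 and 11.69, and 8.93 and 8.42, and limma called 6 of 6 higher in diabetic and 4 of 6 in TSA-treated than in control mice, and 2 of 6 lower in TSA-treated than in diabetic mice. Adipocyte markers (4 of 6) were at 6.42 and 6.37, 5.80 and 6.16, and 4.32 and 4.52, and limma called 2 of 4 lower in TSA-treated mice than in each other group. Values of this kind have no true zero. The part of cell composition or of tissue from outside the spleen in the immediate early gene results was not tested.

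Other genes of the same response were compared through lists of related genes. For the counts in these lists, 6.39% of all probe sets were higher and 8.34% lower in TSA-treated than in control mice at an unadjusted limma p below 0.05. In diabetic mice 3.43% were lower than in control mice, and the share higher is not given here. Of 18 further immediate early transcription factors limma called 0 in any comparison, and in TSA-treated against control mice 2 were higher and 3 lower at an unadjusted p below 0.05, with a median difference of -0.08. Csrnp1, a nuclear protein induced by AXIN1 and cytokines, had log2 levels of 7.39 and 7.32, 6.94 and 6.77, and 6.46 and 6.74 and differed by -0.75 (limma adjusted p = 0.171) there. Klf10, an early gene of TGF-beta signaling, gave 6.13 and 6.08, 6.14 and 7.21, and 7.30 and 6.76, with a difference of 0.93 (limma adjusted p = 0.339) and the second diabetic array again at the TSA-treated level. Egr4, a relative of Egr1, gave 3.92 and 4.204, 3.64 and 3.70, and 3.89 and 5.02, and its TSA-treated minus control difference of 0.39 was -0.17 without the second TSA-treated array.

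Of 36 other early response and feedback genes limma called 0 as well, and 3 were higher and 11 lower in TSA-treated than in control mice at an unadjusted p below 0.05, with a median of -0.17. Gadd45a, a stress sensor of the p53 and MAP kinase pathways, gave 6.34 and 6.06, 6.62 and 7.48, and 8.44 and 8.23. It was 2.14 higher in TSA-treated mice (95% interval 1.38 to 2.89; limma adjusted p = 0.098). Nab2, a corepressor that binds Egr1 and Egr2 and is induced by them, gave 5.97 and 6.21, 5.70 and 5.45, and 4.72 and 4.82. It differed by -1.32 in TSA-treated mice (limma adjusted p = 0.0974), in the same direction as Egr1. Dusp2, a phosphatase of activated lymphocytes, gave 7.50 and 7.41, 7.32 and 7.18, and 6.93 and 5.28, and differed from Dusp1 in direction, at -1.35 (limma adjusted p = 0.306), or -0.52 without the second TSA-treated array.

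Of the upstream kinases and transcription factors 18 of 22 were measured and limma called 0 in any comparison, with 0 higher and 2 lower in TSA-treated than in control mice at an unadjusted p below 0.05. Mrtfa, the coactivator of SRF that the array names Mkl1, gave 7.19 and 7.15, 6.95 and 6.13, and 5.60 and 4.71, a difference of -2.01 in TSA-treated against control mice (limma adjusted p = 0.13), with the arrays of diabetic mice between. Creb1 gave 9.52 and 9.47, 9.33 and 7.69, and 8.82 and 8.02, and the second diabetic array lay far below the first. Without that array its diabetic minus control difference of -0.98 was -0.16. Mapkapk2, the kinase downstream of p38, gave 8.09 and 7.87, 7.92 and 7.44, and 7.57 and 5.77. It differed by -1.31 in TSA-treated against control mice (limma adjusted p = 0.363), and by -0.41 without the second TSA-treated array.

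The lymphocyte activation list, 16 of 16 measured, had 0 genes called by limma (1 lower in TSA-treated and 1 higher in diabetic mice at an unadjusted p below 0.05) and medians of 0.13 in diabetic and 0.17 in TSA-treated mice against control mice. Cd69, an early surface marker of activated lymphocytes, gave 3.98 and 3.99, 4.25 and 4.82, and 4.25 and 4.27, and was 0.55 higher in diabetic than in control mice (limma adjusted p = 0.796), or 0.27 higher without the second diabetic array. Tfrc, the transferrin receptor of dividing and erythroid cells, gave 10.91 and 11.07, 11.80 and 12.09, and 12.38 and 11.15, with a difference of 0.96 in diabetic mice (limma adjusted p = 0.797). Cd83, a marker of activated dendritic cells and B cells, gave 9.16 and 9.16, 9.12 and 9.76, and 9.08 and 8.49. It differed by 0.28 in diabetic and -0.37 in TSA-treated against control mice (limma adjusted p = 0.997 and 0.622), and was 0.65 higher in diabetic than in TSA-treated ones (limma adjusted p = 0.902). Without the second diabetic array these were -0.04 for diabetic against control and 0.33 for diabetic against TSA-treated mice, and without the second TSA-treated array the TSA-treated difference was -0.08. Of the heat shock genes, which respond to stress and handling, 11 of 12 were measured and limma called 0 (2 higher and 1 lower in TSA-treated, 1 higher and 1 lower in diabetic mice at an unadjusted p below 0.05), with medians of 0.15 and 0.19 in the same comparisons. Hsp90aa1 gave 11.15 and 10.97, 11.65 and 11.82, and 11.87 and 11.60, and was 0.68 higher in both diabetic (limma adjusted p = 0.735) and TSA-treated mice (0.201). Hspb1 gave 7.66 and 7.45, 6.83 and 6.54, and 6.83 and 6.98. It was lower than in control mice in both other groups. The difference was -0.87 in diabetic (limma adjusted p = 0.735) and -0.64 in TSA-treated mice (0.219). In diabetic mice Hspa5 differed by -0.04 (limma adjusted p = 1.0). Hspa5, a chaperone of the endoplasmic reticulum, differed by -0.88 in TSA-treated against control mice (limma adjusted p = 0.462), but by -0.12 without the second TSA-treated array, with levels of 11.16 and 11.25, 11.07 and 11.25, and 11.08 and 9.55.

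**Figure D4:**
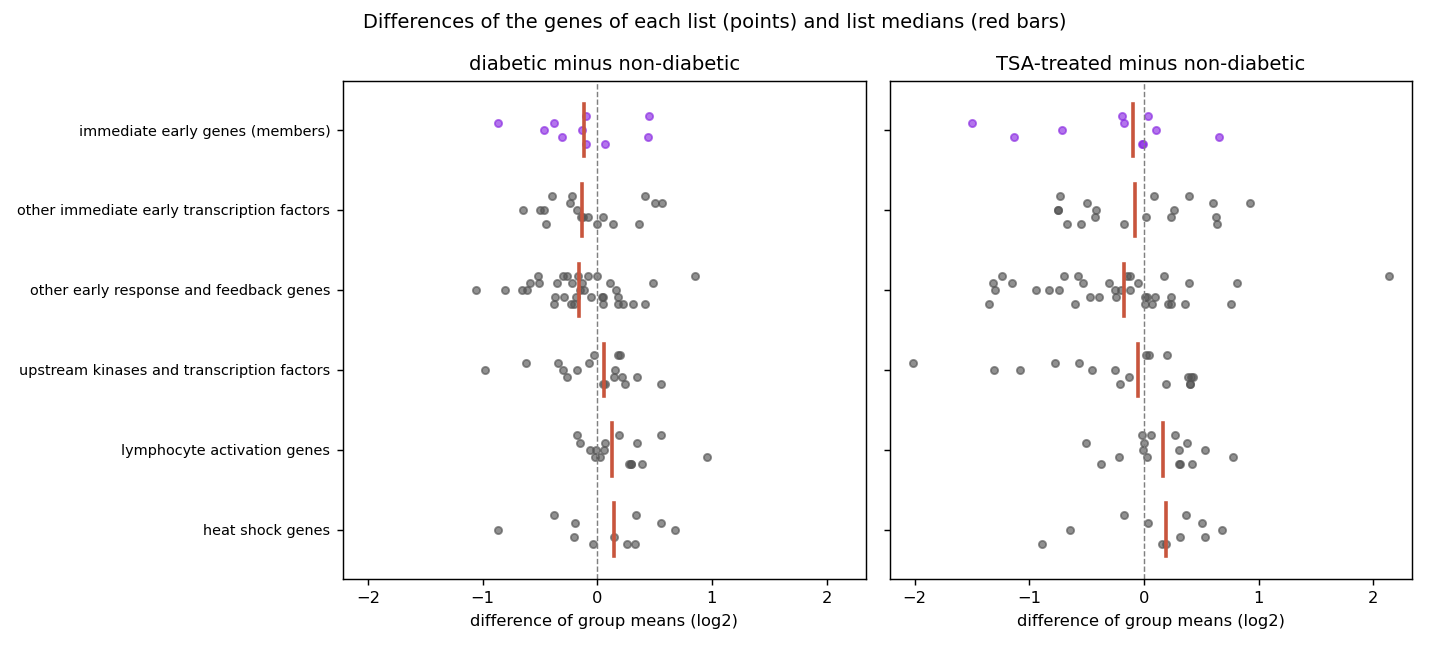
Difference of group means on the log2 scale (horizontal axis) for the genes of the immediate early set (top row, purple) and of 5 further lists in diabetic and TSA-treated mice, each against control mice, with a red bar at the median of each list. The medians lie between -0.16 and 0.15 on the left and between -0.17 and 0.19 on the right, while single genes reach 2.14 (Gadd45a) and -2.01 (Mrtfa).

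The mean log2 level of the 10 genes was 5.88 and 5.85 on the control, 5.75 and 5.71 on the diabetic and 5.60 and 5.55 on the TSA-treated arrays. Their median difference between TSA-treated and control mice was only -0.09. The falls of Junb, Ier2 and Egr1 there (-1.50, -1.13 and -0.71) weighed most in this mean. Among 4519 probe sets of other genes with a mean above the middle of the arrays and a standard deviation of at least 0.5, the 8 with the highest Pearson correlation with that mean over the 6 arrays were those of Plcxd2, Sema4d, Coro1a, Kdelr1, Dsg2, Foxp1, Prkd2 and Trim7, with correlations from 0.987 to 0.992. A correlation above 0.95 was reached by 108 probe sets. Coro1a, an actin regulator of leukocytes, gave 12.09 and 11.91, 11.61 and 11.22, and 10.61 and 10.25, in the same order of groups.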

How the data were processed

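RNA pooled within 3 groups of mice was labeled and hybridized to 2 arrays per group. The authors quantile-normalized the arrays and deposited Robust Multi-array Average values as log2 levels (S+Array Analyzer version 2.0.1 run under S-Plus version 6.2). Arrays have no read depth, and their number limits the precision. Differences between dim probe sets are compressed. Of 45101 probe sets, 64 controls were left out. Of the others, 34945 name 1 gene in the annotation, 932 several and 9160 none.

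A limma fit (version 3.58.1, R version 4.3.3) to all 6 arrays gave each group its own mean, with 3 residual and 2.94 prior degrees of freedom. P-values were adjusted by Benjamini-Hochberg over 45037 probe sets, and 0.05 was the threshold. The fit was tested on simulated data. A gene stood by its brightest probe set naming it alone. The members, 5 further lists and 9 marker lists were chosen with earlier results of these data known. Named were all members, the 3 genes of each further list with the largest difference (and any called), and the 8 genes best correlated with the members' mean. Some listed genes were not analysed here. Alternatives were other tests (among them the methods' local pooled error test and t-test), filters and normalizations. Others were single arrays left out, a replicate block and 2 settings added after the data were seen.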

Additional observations from a re-analysis of the deposited data

How the results depend on the processing

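The number of the 12 probe sets that passed stayed at 0 in every alternative for diabetic against control mice, for diabetic against TSA-treated mice and for any difference among the groups. Leaving out the second diabetic and second TSA-treated arrays was a setting chosen after seeing the data, as was the beta-actin covariate. For TSA-treated against control mice the number was 1 (Junb) with these groups fitted alone (1.59% of all probe sets). Leaving out either diabetic array gives that same fit and is no separate result. It was also 1 (Junb) by the local pooled error test (3.59%), and 2 (Junb and Ier2) by a difference of at least 1 without overlap (7.27%). The cause was not tested. The replicate block left all 30 single-gene results on their side of the threshold and called 0 of 12, and same-numbered arrays deviated with correlations of -0.34, -0.04 and -0.10 for the 3 pairs of groups, so the numbers do not pair the arrays.

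Of 537 single-gene values under an alternative, 37 changed sign. With single arrays left out, diabetic minus control ran from -0.22 to 0.017 for Fosb, -0.33 to 0.059 for Jun and -0.71 to 0.086 for Ier2. TSA-treated minus control ran from -0.060 to 0.14 for Fos, -0.30 to 0.26 for Fosb, -0.088 to 0.30 for Jun, -0.44 to 0.10 for Egr2, -0.16 to 0.14 for Atf3 and -0.39 to 0.011 for Nr4a1. Diabetic minus TSA-treated ran from -0.36 to 0.20 for Fosb, -0.41 to 0.0024 for Egr2, -0.07 to 0.22 for Atf3 and -0.11 to 0.29 for Nr4a1. Without the second diabetic and second TSA-treated arrays, diabetic minus control was 0.017 for Fosb and 0.086 for Ier2, TSA-treated minus control -0.060 for Fos, 0.14 for Atf3 and 0.011 for Nr4a1, and diabetic minus TSA-treated 0.32 for Fosb, -0.078 for Atf3 and -0.16 for Nr4a1. With the beta-actin covariate, TSA-treated minus control was -0.36 for Fos, 0.25 for Atf3 and 0.13 for Nr4a1, and diabetic minus TSA-treated 0.21 for Fosb, 0.14 for Egr2, -0.11 for Atf3 and -0.13 for Nr4a1. For TSA-treated minus control, median centring gave 0.0068 for Fosb and 0.013 for Atf3, quantile normalization again gave 0.036 for Atf3 (and -0.058 for Nr4a1 in diabetic minus TSA-treated), and averaging a gene's probe sets gave -0.0094 for Jun and 0.062 for Egr2.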
